A study of Rattus norvegicus with 10 samples.

Results

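Histone genes of the H1, H2A, H2B, H3 and H4 classes were examined in RNA of plasma exosomes from rats after remote ischemic conditioning (RIC) and from healthy control rats. Their transcript clusters, the array's units of measurement, were chosen by gene symbol, with a histone symbol as the only one in the platform annotation. This gene group was itself selected on the RIC minus control difference, because histone genes had been seen to be higher in RIC on these same arrays. The differences between groups given for histone genes are therefore descriptions, and no test is attached to them. The choice held 38 clusters of 68842 on the array, and these belonged to 32 genes, namely 7 of H1, 11 of H2A, 8 of H2B, 3 of H3 and 3 of H4. A gene measured by more than 1 cluster was represented by its brightest one, on the mean of 10 arrays. The top cluster of Hist1h2bq sat at 19.93, the ceiling of the deposited values, on all arrays and could show no difference, so 31 genes remained to be compared.

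The RIC group consisted of 5 male Wistar rats given 4 cycles of remote ischemia, each with 5 min of ischemia and 5 min of reperfusion. The control group consisted of 5 healthy male Wistar rats. The labels repeat 1 treatment text for every animal, and it was read here as describing the RIC group. The body part treated, the time of blood sampling, the age of the rats and any sham procedure are not stated in the labels. From each rat 10 mL of venous blood was drawn into an EDTA tube, exosomes were pelleted in an ultracentrifuge, and biotin-labelled cRNA of their total RNA was hybridised to 1 Affymetrix array per animal. The series is titled as exosomal microRNA, but the deposited table holds transcript clusters of a whole-transcript array, and the histone values come from these. Values are log2 signals, and their precision is limited by the number of arrays.

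Core histones H2A, H2B, H3 and H4 form the protein spool of the nucleosome around which DNA is wound, and linker histone H1 binds where DNA enters and leaves it. Most of their genes lie in clusters, lack introns and are transcribed mainly while a cell copies its DNA in S phase. Their mRNAs end in a conserved stem-loop bound by SLBP in place of a poly(A) tail, and they are degraded when DNA synthesis stops. Mature platelets and red cells have no nucleus, whereas their precursors in the marrow divide.

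Many of the histone genes share promoter letters that the choice of genes did not use. Of the 32 genes, 30 had an entry among the RefSeq promoter sequences of build GRCr8, 29 by gene number and 1 by symbol. Hist1h3b and H4c14 had none. The windows ran from 250 bases before to 50 bases after the start of each gene. A set of 5 motifs known from histone promoters were searched on both strands: the TATA box as TATAAA, the CCAAT box as CCAAT, the octamer bound by POU2F1 as ATTTGCAT, a core of the H1 box as AAACACA and a core of the H4 promoter site as GGTCCG. None of these letter strings contains another. The 150 bases before the start are shown, 5′ to 3′, for the gene with the largest difference in each class, for the other H1 gene above background, H1f4, and for the H1 gene with the lowest mean, H1f10. Capitals mark the motifs, and ATTGG is CCAAT read on the opposite strand.
H1f4, chr17:41914275-41914424, plus strand: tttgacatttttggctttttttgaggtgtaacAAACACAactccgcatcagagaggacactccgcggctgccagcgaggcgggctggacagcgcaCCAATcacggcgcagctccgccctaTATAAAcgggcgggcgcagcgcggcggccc
H1f5, chr17:47421725-47421874, plus strand: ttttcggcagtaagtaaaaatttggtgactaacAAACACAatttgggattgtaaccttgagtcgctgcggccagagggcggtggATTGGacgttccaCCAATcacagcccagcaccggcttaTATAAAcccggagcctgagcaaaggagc
H1f10, chr4:121998898-121999047, minus strand: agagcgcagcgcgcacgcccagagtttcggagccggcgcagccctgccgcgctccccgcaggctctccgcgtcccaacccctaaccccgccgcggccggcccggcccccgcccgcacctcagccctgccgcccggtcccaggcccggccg
H2ac4, chr17:47496128-47496277, minus strand: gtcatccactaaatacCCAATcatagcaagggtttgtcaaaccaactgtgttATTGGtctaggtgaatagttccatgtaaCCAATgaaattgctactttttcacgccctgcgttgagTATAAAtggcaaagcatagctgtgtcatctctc
Hist1h2bo, chr17:47413790-47413939, minus strand: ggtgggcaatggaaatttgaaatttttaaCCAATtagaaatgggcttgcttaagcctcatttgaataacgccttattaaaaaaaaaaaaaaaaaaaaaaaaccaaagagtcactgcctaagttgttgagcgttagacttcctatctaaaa
Hist2h3c2, chr2:186526012-186526161, plus strand: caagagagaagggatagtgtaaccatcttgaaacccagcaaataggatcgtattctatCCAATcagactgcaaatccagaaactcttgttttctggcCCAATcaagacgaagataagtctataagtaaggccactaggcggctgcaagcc
Hist1h4m, chr17:47393614-47393763, plus strand: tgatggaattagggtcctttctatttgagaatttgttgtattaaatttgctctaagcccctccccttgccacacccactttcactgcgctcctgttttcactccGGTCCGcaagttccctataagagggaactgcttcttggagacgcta

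H1f4 and H1f5 have 3 motifs at like distances, with AAACACA 118 and 117 bases before the start, CCAAT 55 and 53 bases before it and TATAAA 30 and 28 bases before it. H1f5 has a further CCAAT on the opposite strand 66 bases before the start. H1f10, whose product is a replication-independent linker histone, had none of the motifs in the 150 bases shown. H2ac4 had CCAAT on one strand or the other 134, 98 and 70 bases before the start and TATAAA 33 bases before it. Hist2h3c2 had CCAAT 92 and 53 bases before the start, Hist1h2bo had it at 121 bases, and Hist1h4m had GGTCCG at 46 bases.

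In the whole windows, CCAAT was present in 26 of the 30 histone promoters, against 37.5% of 33469 promoters in the table. TATAAA was present in 18 of 30, against 14.2%, and ATTTGCAT in 9 of 30, against 1.78%. All 11 H2A and all 8 H2B promoters held CCAAT, and 10 of the 11 H2A and 4 of the 8 H2B promoters held TATAAA. Neither was found in the 2 H4 promoters, and the promoter of H1f7 held none of the motifs searched. ATTTGCAT was found in 5 H2A and 4 H2B promoters and in none of the 7 H1, 2 H3 and 2 H4 promoters. AAACACA was found in 4 of 7 H1 promoters, 2 of 11 H2A promoters and 1 of 8 H2B promoters, against 6.99% of all promoters. GGTCCG was found in both H4 promoters and in 2 H1 promoters, against 8.25% of all. These matches describe letters in a window and do not show that a factor binds there.

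Signal was read against olfactory and vomeronasal receptor genes, which are expressed mainly in the sensory epithelia of the nose. Their 1447 clusters had a median log2 signal of 4.01 and a 95th percentile of 4.38, and a gene whose mean lay above the latter is called above background. By this measure 22 of the 31 histone genes were above background, made up of 2 of 7 H1 genes, 10 of 11 H2A genes, 4 of 7 H2B genes and all 3 H3 and 3 H4 genes. The arrays had medians from 4.05, in control sample 2, to 4.23, in RIC sample 5. These were 4.17 to 4.23 in RIC and 4.05 to 4.17 in control. Receptor medians were 4.01 to 4.09 in RIC and 3.89 to 3.99 in control, so background signal was itself higher on every RIC array. Differences of dim genes are limited by this offset. All 22 platelet markers measured had means above background, from 4.88 for Selp upwards, and 7 of them, Pf4 and Tubb1 among them, were at the ceiling on all arrays. The globin genes Hba-a1, Hbb-bs and Hbb-b1 were at the ceiling as well. In limma's fit over all 68842 clusters 0% passed an adjusted p of 0.05 for RIC against control, the lowest adjusted p being 0.302, while 7665 clusters, 11.1%, had an unadjusted p under 0.05. Dim clusters were mostly higher in RIC, and brighter ones mostly lower: of 67405 clusters that vary 61.2% were higher in RIC, with a median difference of 0.03, whereas among the 21115 above background 38.8% were higher, with a median of -0.04.

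Of the 31 histone genes 27 had a higher mean in RIC, 3 had a lower one and 1 was equal, with a median difference of 0.14 on the log2 scale and a range from -0.42 to 1.50. The median was 0.07 with arrays centred on their medians, 0.05 with arrays centred on the receptor clusters and 0.21 after a repeated quantile normalization. Since the genes were selected on this contrast, the count is to be seen beside the 61.2% of all varying clusters and supports nothing by itself. The 22 genes above background had a median difference of 0.42, and 18 of them were higher in RIC, where 38.8% of all clusters above background were. The 9 genes at or below background were all higher in RIC with a median of 0.13, and 71.5% of all clusters at that level were. RIC sample 4 weighed heavily in these values. Without it 25 of 31 genes were higher in RIC and the median of the 22 genes above background was 0.24, and without RIC samples 1 and 4 together, a choice made after the data were seen, 24 of 31 were higher and that median was 0.09. Leaving out control samples 1 and 2 instead left 27 of 31 higher and a median of 0.34. In these comparisons 17, 16 and 18 of the 22 genes above background were higher in RIC, where 37.3%, 36.4% and 42.4% of all clusters above background were. In bulk vesicle RNA, a change in the number of vesicles of one origin and a change in the RNA each carries cannot be told apart.

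**Figure D1:**
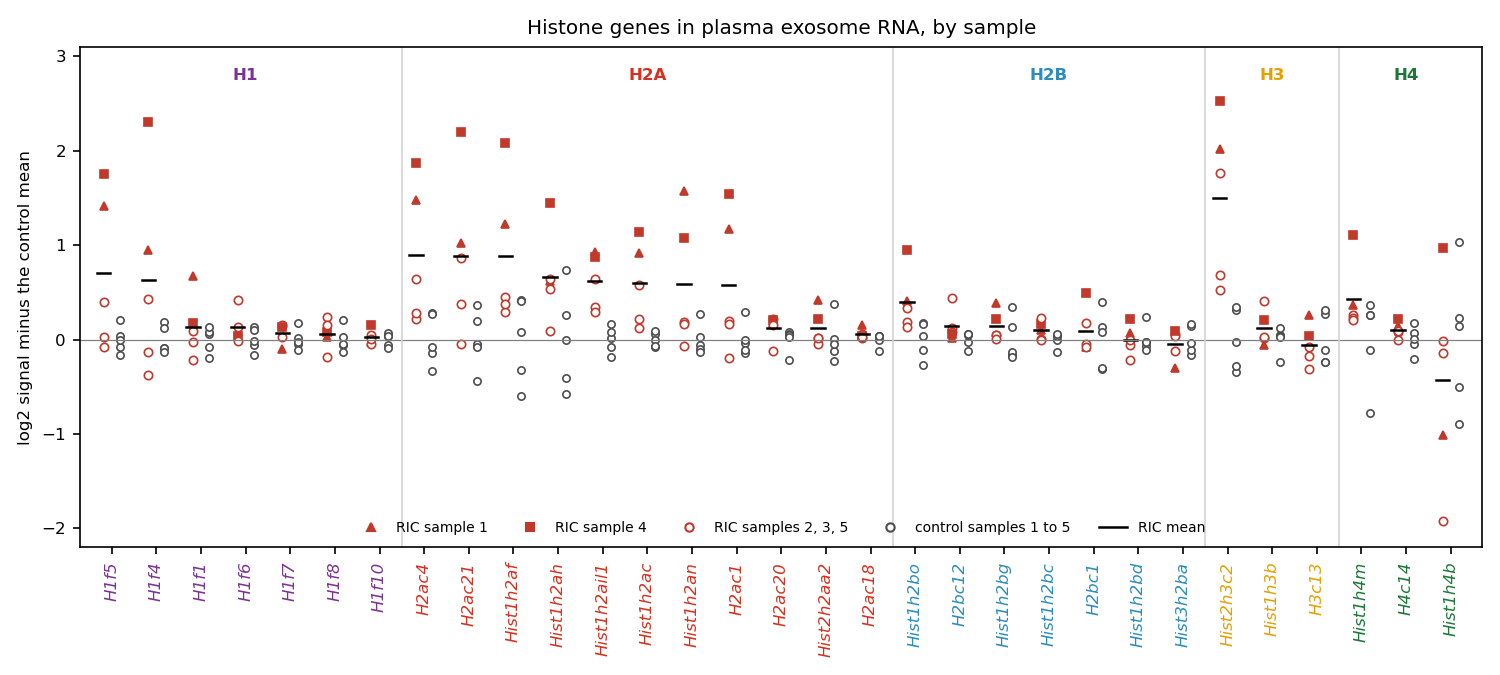
Log2 signal minus the control mean (vertical axis) for each of the 31 histone genes that vary (horizontal axis, by class), with RIC samples in red on the left and control samples in grey on the right of each gene, and the RIC mean as a bar. Squares (RIC sample 4) and triangles (RIC sample 1) top most of the H2A genes, H1f4, H1f5 and Hist2h3c2, while RIC samples 2, 3 and 5 lie closer to the controls.

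Among the H2A genes, which encode the nucleosome's histone H2A, all 11 had a higher mean in RIC, from 0.06 to 0.90, with a median of 0.60. H2ac4 had signals of 9.71, 8.87, 8.45, 10.10 and 8.51 in RIC samples 1 to 5, against 8.09, 8.51, 7.89, 8.50 and 8.15 in control samples 1 to 5. RIC samples 1, 2 and 4 lay above every control, and the other two within the control range or level with its top. The means were 9.13 ± 0.74 in RIC and 8.23 ± 0.27 in control (SD, n = 5 each), a log2 difference of 0.90 or 1.87-fold.

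H2ac21 had 8.10, 7.94, 7.03, 9.27 and 7.45 in RIC samples 1 to 5 and 7.03, 6.99, 6.64, 7.27 and 7.44 in control samples 1 to 5, a difference of 0.88. RIC sample 4 stood highest, and RIC sample 3 lay within the control range. Hist1h2af had 11.18, 10.25, 10.41, 12.04 and 10.33 in RIC and 9.36, 10.38, 9.64, 10.37 and 10.04 in control, also a difference of 0.88. Here the groups overlapped through RIC samples 2 and 5, while RIC sample 4 exceeded every control by more than a log2 unit. The top cluster of Hist1h2ah had 11.42, 11.34, 11.44, 12.25 and 10.89 in RIC and 10.22, 11.54, 10.79, 11.06 and 10.39 in control, a difference of 0.67. Control sample 2 exceeded every RIC sample but RIC sample 4.

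H2A genes of lower signal showed the same 2 RIC samples at the top. Hist1h2ac had 5.52, 5.19, 4.83, 5.75 and 4.73 in RIC and 4.67, 4.60, 4.53, 4.54 and 4.70 in control, a difference of 0.60, and the groups did not overlap. Hist1h2ail1 had 5.00, 4.71, 4.41, 4.95 and 4.36 in RIC and 4.09, 3.99, 4.15, 4.24 and 3.88 in control, a difference of 0.62 without overlap, at a mean just below the background limit. Hist1h2an had 6.02, 4.63, 4.38, 5.52 and 4.61 in RIC and 4.47, 4.39, 4.34, 4.71 and 4.31 in control, a difference of 0.59 with RIC samples 1 and 4 alone above the controls.

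H2ac1 encodes TH2A, an H2A variant known from the testis, and its values resembled those of other H2A genes of chromosome 17. Its signals were 7.13, 6.16, 6.13, 7.50 and 5.77 in RIC and 5.82, 6.25, 5.93, 5.85 and 5.96 in control, a difference of 0.58. RIC samples 1 and 4 were above every control and RIC sample 5 was below every control. The remaining H2A genes had smaller differences as deposited, H2ac20 by 0.13, Hist2h2aa2 by 0.13 and H2ac18 by 0.06. All 3 lie on chromosome 2 in the RefSeq gene table, as does H2ac21. The sign of H2ac18 turned when arrays were centred on their medians (-0.00) or on the receptor clusters (-0.02), while a repeated quantile normalization gave 0.25 for H2ac18 and 0.39 for Hist2h2aa2. Without RIC samples 1 and 4 the H2A median was 0.31, against 0.60 with them.

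Of the 7 H1 genes, all with a higher mean in RIC and a median difference of 0.13, only H1f4 and H1f5 were above background. Both encode linker histones made in dividing somatic cells. H1f4 had 10.82, 10.30, 9.49, 12.17 and 9.73 in RIC and 9.78, 10.05, 9.99, 9.78 and 9.73 in control. RIC sample 4 was more than 2 log2 units above the highest control, RIC sample 3 was below all controls, and RIC sample 5 equalled the lowest. The means were 10.50 ± 1.07 in RIC and 9.87 ± 0.14 in control (SD, n = 5 each), a difference of 0.64. Without RIC samples 1 and 4 the difference of H1f4 was -0.03.

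H1f5 had 7.66, 6.16, 6.27, 8.00 and 6.64 in RIC and 6.17, 6.28, 6.08, 6.45 and 6.24 in control. RIC samples 1, 4 and 5 were above every control and RIC samples 2 and 3 among them. The means were 6.95 ± 0.84 in RIC and 6.24 ± 0.14 in control (SD, n = 5 each), a difference of 0.70, and without RIC samples 1 and 4 the difference was 0.11.

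The other 5 H1 genes had signals like those of the receptors in both groups. H1f1, another linker histone gene of chromosome 17, differed by 0.14 with a mean of 4.18 in RIC and 4.04 in control. H1f6, the testis linker histone H1t, differed by 0.13, and H1f7, the linker histone of maturing sperm, by 0.07. H1f8, the oocyte linker histone, differed by 0.06, and H1f10 by 0.03. The receptor clusters themselves had a median difference of 0.09, and centring on them gave values of -0.01 for H1f7, -0.02 for H1f8 and -0.06 for H1f10. H1f10 was below 0 under each of the 4 rescalings tried, from -0.06 to -0.02.

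The H2B genes encode the partner of H2A in the nucleosome, and they did not show the spread of the H2A genes. Of 7 that vary, 5 had a higher mean in RIC, 1 a lower one and 1 an equal one, with a median difference of 0.10 that was 0.01 to 0.06 under the 4 rescalings. Hist1h2bo had the largest, 0.40, with 5.53, 5.31, 5.46, 6.08 and 5.26 in RIC and 5.02, 5.16, 4.86, 5.30 and 5.29 in control. RIC samples 1 to 4 lay above every control, by 0.01 in the case of RIC sample 2, and RIC sample 5 lay among the controls. H2bc12 and Hist1h2bg each differed by 0.14, Hist1h2bc by 0.10 and H2bc1, which encodes the testis variant TH2B, by 0.09. Hist1h2bd had the same mean of 4.55 in both groups, and Hist3h2ba differed by -0.05. Of these 6 genes H2bc1, Hist1h2bd and Hist3h2ba were above background, each with a mean below 5. The second cluster of Hist1h2bq, whose top cluster was at the ceiling, had a mean of 3.95 and a difference of 0.02.

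Of the 3 H3 genes, Hist2h3c2 had the largest difference of all histone genes. Its signals were 12.68, 12.42, 11.18, 13.19 and 11.34 in RIC and 10.31, 10.63, 10.38, 10.97 and 11.00 in control. Every RIC sample lay above every control, with RIC sample 3 only 0.18 above the highest. The means were 12.16 ± 0.87 in RIC and 10.66 ± 0.32 in control (SD, n = 5 each), a difference of 1.50 or 2.84-fold. It was 1.25 without RIC sample 4 and 0.99 without RIC samples 1 and 4, which made it the one histone gene with 0.5 or more in that comparison. Hist1h3b differed by 0.12 and H3c13 by -0.05, both with overlapping groups, so the H3 class rested on 1 gene.

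Among the H4 genes, Hist1h4b and Hist1h4m had high signals and H4c14 had a mean of 4.93. Differences of their top clusters ran from -0.42 to 0.43. The top cluster of Hist1h4m had 14.71, 14.61, 14.57, 15.45 and 14.55 in RIC and 13.57, 14.71, 14.61, 14.61 and 14.23 in control, a difference of 0.43. RIC sample 4 was high and control sample 1 low, and the other 8 samples lay between 14.23 and 14.71. Its second cluster had 11.81, 11.15, 10.35, 12.49 and 10.64 in RIC and 10.15, 11.51, 10.89, 10.89 and 10.51 in control, a difference of 0.50. H4c14 differed by 0.11 with overlapping groups.

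Hist1h4b was the only one of the 5 genes with several clusters whose clusters differed in sign. Its top cluster had 11.44, 12.31, 12.43, 13.42 and 10.52 in RIC and 11.55, 13.48, 12.68, 11.94 and 12.59 in control, a difference of -0.42 with means of 12.02 ± 1.10 in RIC and 12.45 ± 0.74 in control (SD, n = 5 each). RIC samples 1 and 5 were below every control. The difference of this cluster was -0.05 without RIC sample 5, -0.17 without control sample 2, -0.28 without RIC sample 1 and -0.77 without RIC sample 4, and -0.04 after a repeated quantile normalization. Its second cluster had 9.92, 9.93, 9.30, 10.44 and 9.28 in RIC and 8.40, 10.54, 9.06, 8.61 and 8.82 in control, a difference of 0.69, and there control sample 2 was the highest of all 10 samples while the other 4 controls lay below every RIC sample. The third differed by 0.17. The platform annotation gives a gene number for the first of these clusters and none for the other two. The second is numbered on the array like the chromosome 4 clusters of H1f8 and H1f10, although the gene Hist1h4b lies on chromosome 17. It may therefore come from another locus, and whether it measures Hist1h4b itself was not tested. The clusters of Hist1h2ah differed by 0.67 and 0.53, and those of Hist1h2bo by 0.40 and 0.10. Histone copies of one class are close to identical in their coding sequence, and how far a cluster's probes also bind RNA of other copies was not tested, so values of single genes within a class are uncertain.

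**Figure D2:**
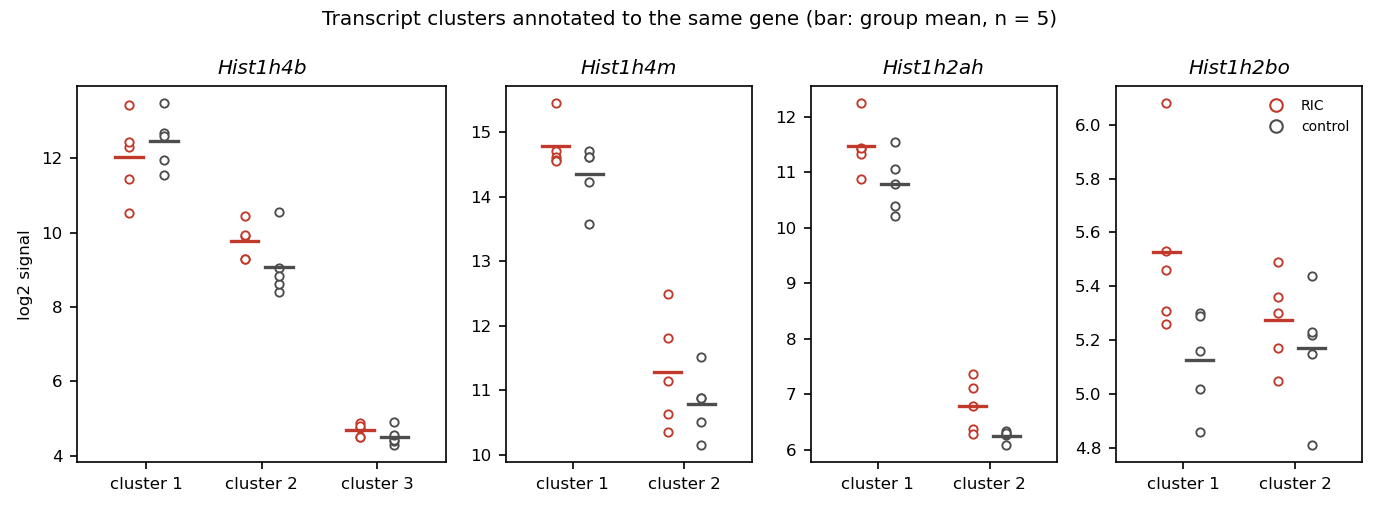
Log2 signal (vertical axis, own scale in each panel) in each of 5 RIC samples (red, left) and 5 control samples (grey, right) for the transcript clusters annotated to Hist1h4b, Hist1h4m, Hist1h2ah and Hist1h2bo, with bars at the group means. The first cluster of Hist1h4b is lower in RIC by 0.42 and the second, which may come from another locus, higher by 0.69. Both clusters of each other gene are higher in RIC.

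A difference of 0.5 or more was found in 11 histone genes, 10 of them above background and 8 of them H2A genes, the others being H1f4, H1f5 and Hist2h3c2. Of all clusters above background 1.7% differed by that much. The histone count fell to 5 genes without RIC sample 4, to 9 without RIC sample 1 and to 1 without both, samples chosen after the data were seen. The share of all clusters above background was 1.48%, 1.74% and 1.59% in those comparisons. Groups did not overlap, with every RIC value above every control value, for 3 of the 31 genes, Hist2h3c2, Hist1h2ac and Hist1h2ail1, where 1.3% of all varying clusters met this. Above background it was 2 of 22 genes, against 0.729% of clusters. Both shares describe genes that were selected for being higher in RIC.

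**Figure D3:**
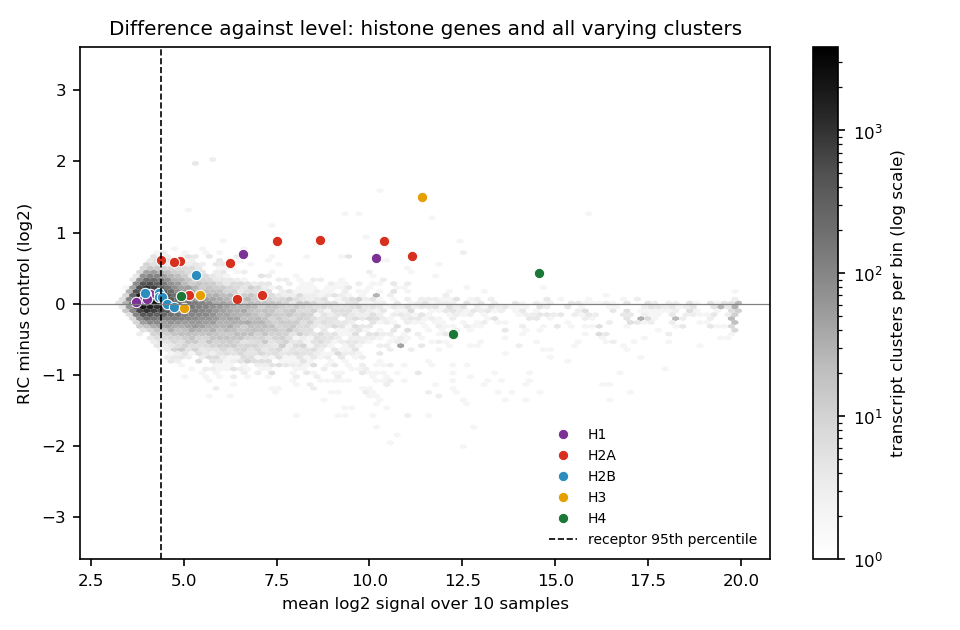
RIC minus control (log2, vertical axis) against mean log2 signal over 10 samples (horizontal axis), with varying clusters as grey bins shaded by their number on a log scale and the 31 histone genes as points coloured by class. To the right of the dashed line, the receptor 95th percentile of 4.38, most clusters lie below 0 and 18 of 22 histone genes lie above it.

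The rats of the RIC group differed among themselves in histone signal more than the controls did. The SD was larger in RIC than in control for 15 of the 22 genes above background, with a median SD of 0.41 in RIC and 0.18 in control. Among all clusters above background 40.8% had the larger SD in RIC, and the medians were 0.19 in RIC and 0.21 in control. For H1f4 the SD was 1.07 in RIC and 0.14 in control, and for Hist1h2ac 0.44 in RIC and 0.08 in control. The H4 genes were an exception, with the larger SD in RIC for 1 of 3.

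The order of the RIC samples was shared by many histone genes. RIC sample 4 gave the highest RIC value for 16 of the 22 genes above background, RIC sample 1 for 4, RIC samples 2 and 3 for 1 each and RIC sample 5 for none. Over all 21115 clusters above background RIC sample 4 gave the highest RIC value for 23.4% and RIC sample 1 for 22.5%. The median deviation of the 22 genes from their control means was 0.41, 0.19, 0.03, 1.02 and 0.06 in RIC samples 1 to 5, and -0.12, 0.04, -0.02, 0.13 and -0.00 in control samples 1 to 5. For the 11 H2A genes it was 0.93, 0.29, 0.17, 1.14 and 0.15 in RIC and -0.14, 0.08, -0.03, 0.17 and -0.04 in control. By these medians RIC samples 3 and 5 lay within the control range. RIC samples 1 and 4 both lay above every control for 14 of the 31 genes, among them 10 of the 11 with a difference of 0.5 or more. These samples were picked for their high histone values, and the share of all clusters that meet this was not counted. Only 1 gene had 0.5 or more without them, so the 10 of 11 follows largely from how those genes were picked.

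By position in the RefSeq gene table, 20 of the 31 genes lay on chromosome 17 and 6 on chromosome 2. The 20 genes of chromosome 17 had a median difference of 0.42, and 17 were higher in RIC. The 6 genes of chromosome 2 had a median of 0.13, and all were higher, though the range ran from 0.06 for H2ac18 to 1.50 for Hist2h3c2. The H1 genes below background lay partly outside these clusters, H1f8 and H1f10 on chromosome 4 and H1f7 on chromosome 7. Hist3h2ba lay on chromosome 10, and Hist1h3b had no position there.

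Genes that work with histones were taken from lists that the choice of members did not use, and limma's fit over all clusters gives a test for each of them. Of 9 histone variants measured from a list of replication-independent ones, 5 were higher and 4 lower in RIC with a median of 0.02. None of them passed an adjusted p of 0.05. H2az1, which encodes the variant H2A.Z, had 6.83, 6.84, 6.53, 6.91 and 6.80 in RIC and 6.43, 6.87, 6.79, 6.80 and 6.68 in control, a difference of 0.07 (SE 0.10, limma adjusted p = 0.807). H2ax, which encodes the variant that is phosphorylated at DNA breaks, had 5.76, 5.32, 5.51, 5.65 and 5.30 in RIC and 5.04, 5.45, 5.14, 5.43 and 5.42 in control, a difference of 0.21 (SE 0.12, limma adjusted p = 0.516). In both genes the groups overlapped. H3f3c had the same value of 7.49 in every control sample and in RIC samples 2, 4 and 5, with a difference of -0.01. Whether that value is an upper limit of the cluster was not tested. H2ap, at a mean of 3.71 below background, had the lowest adjusted p of the list, 0.394 in limma's fit.

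Of 24 genes for the transcription, 3′ end processing and decay of histone mRNA, 7 were higher and 17 lower in RIC with a median of -0.06, and none passed in limma's fit, the lowest adjusted p being 0.439 for Nfyc, a subunit of the CCAAT-binding factor NF-Y. Slbp, which encodes the stem-loop binding protein and was named after its values were seen, had a mean of 5.69 in RIC and 5.70 in control. Ncbp2, a subunit of the cap-binding complex, differed by -0.51 (SE 0.23, limma adjusted p = 0.451) and Tut7, a terminal uridylyl transferase, by -0.54 (SE 0.24, limma adjusted p = 0.456). Of 19 histone chaperones that vary, 8 were higher and 11 lower with a median of -0.04 and a lowest limma adjusted p of 0.484. That value belonged to Hjurp, the chaperone of the centromeric H3 variant, which differed by 0.12. Chaf1a, a subunit of the replication-coupled chaperone CAF-1, differed by 0.13 (limma adjusted p = 0.487), Anp32a by -0.15 and Npm1 by 0.06. These lists were close to the median of -0.04 of all clusters above background.

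Of 30 genes of S phase and proliferation, 24 were higher and 6 lower in RIC with a median of 0.09. Of the 30 genes 19 were above background. Among all varying clusters 61.2% were higher in RIC, and among those above background 38.8%. No gene of the list passed an adjusted p of 0.05 in limma's fit. In that fit 5 genes, all higher in RIC, had an unadjusted p under 0.05, against 11.1% of all clusters. Of those 5, Ccne1, Cdt1 and Birc5 were below background, where 71.5% of all clusters were higher in RIC. Mki67, which encodes the proliferation antigen Ki-67, had 6.95, 6.11, 6.03, 7.91 and 6.14 in RIC and 6.15, 6.04, 5.90, 6.57 and 5.84 in control, a difference of 0.53 (SE 0.36, limma adjusted p = 0.581). RIC samples 1 and 4 were above every control and the other 3 among them. Pcna, the sliding clamp of DNA polymerases, had 7.20, 6.53, 6.27, 6.84 and 6.65 in RIC and 6.36, 6.65, 6.79, 6.69 and 6.25 in control, a difference of 0.15 (limma adjusted p = 0.757), again with RIC samples 1 and 4 on top. Cdt1, which loads the replicative helicase, had the lowest adjusted p of the list, 0.313 in limma's fit, at a mean of 4.02 below background, and Mcm3, a subunit of that helicase, differed by 0.15 (limma adjusted p = 0.412). RIC sample 4 gave the highest RIC value for 14 of the 30 genes and RIC sample 1 for 13. The median signals of the list were 4.88, 4.58, 4.62, 4.87 and 4.56 in RIC samples 1 to 5 and 4.63, 4.72, 4.72, 4.62 and 4.57 in control samples 1 to 5.

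Markers of blood cells that vesicles could come from were set beside the histone genes. RIC sample 4, the highest for most histone genes, was also the highest RIC sample for 21 of the 23 erythroid markers that vary. All 27 erythroid markers measured had means above background, the lowest being 4.56 for Ank1. The median of the list was 8.13 in RIC sample 4 and between 6.95 and 7.30 in the other RIC samples, and it lay between 6.10 and 6.93 in control samples. Measured per gene against the control mean, the median deviation was 0.68 in RIC sample 4 and 0.03 to 0.11 in the other RIC samples, which overlapped with the -0.15 to 0.08 of the control samples. Of the 23 markers 15 were higher and 8 lower in RIC with a median of 0.18, where 38.8% of all clusters above background were higher. None of the 23 passed in limma's fit, and 3 had an unadjusted p under 0.05, against 11.1% of all clusters. Car1, a carbonic anhydrase of red cells, had 9.15, 7.40, 6.80, 9.05 and 7.93 in RIC and 6.45, 6.29, 6.10, 6.93 and 6.85 in control, with RIC samples 1 and 4 highest, a difference of 1.54 (SE 0.45, limma adjusted p = 0.376). Alas2, the heme synthesis enzyme of erythroid cells, had 12.47, 13.06, 11.78, 15.23 and 13.05 in RIC and 13.84, 12.50, 12.85, 13.50 and 12.02 in control, with RIC sample 4 highest, a difference of 0.18 (limma adjusted p = 0.944). Rhag, a membrane protein of the Rh complex, differed by -1.31 (limma adjusted p = 0.526) and Slc25a37, the mitochondrial iron importer, by 0.25 (limma adjusted p = 0.399). The part of erythroid RNA in the histone values was not tested.

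Neutrophil and lymphocyte markers had median differences close to the 0.09 of the receptor clusters and above the -0.04 of all clusters above background. Of those clusters above background 38.8% were higher in RIC. In median deviation from the control mean RIC sample 4 was the highest of all samples for both lists, at 0.15 each. The margin was small, with RIC sample 1 and control sample 4 at 0.13 for the neutrophil list and RIC sample 5 at 0.12 for the lymphocyte list. Of 19 neutrophil markers, 11 of them above background, 12 were higher and 7 lower in RIC with a median of 0.08, and the list median lay between 4.32 and 4.63 in RIC samples and between 4.35 and 4.62 in control samples. Mpo, the myeloperoxidase of neutrophil granules made in marrow precursors, had 4.97, 4.84, 4.61, 5.16 and 4.64 in RIC and 4.37, 4.21, 4.19, 4.62 and 4.47 in control, with RIC sample 4 highest and only RIC sample 3 below the top control, a difference of 0.47 (SE 0.12, limma adjusted p = 0.356). S100a9, a calcium-binding protein of neutrophils, differed by 0.51 (limma adjusted p = 0.795), Cybb by -0.07 and Ltf by 0.08. Of 19 lymphocyte markers, 15 above background, 13 were higher and 6 lower with a median of 0.09. The list median lay between 4.84 and 5.01 in RIC and between 4.65 and 4.87 in control. In limma's fit 3 of the 19 had an unadjusted p under 0.05, against 11.1% of all clusters. Pax5, a transcription factor of B cells, differed by 0.32 (limma adjusted p = 0.352), Il7r by 0.21 (limma adjusted p = 0.401), Cd4 by 0.55 (limma adjusted p = 0.456) and Cd79a by -0.25 (limma adjusted p = 0.662).

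Platelet markers had mostly lower means in RIC. Of 15 that vary, 1 was higher and 14 lower in RIC with a median of -0.26, where 38.8% of all clusters above background were higher. Thbs1 was at the ceiling of 19.93 in every control sample and could only be equal or lower in RIC. Itgb3, Treml1 and P2ry12 also had a single value in every control sample (18.31, 17.86 and 19.75), and no RIC value exceeded it. Whether those values are upper limits was not tested, so the count of 14 includes genes that perhaps could not be higher. None of the 15 had an adjusted p under 0.05 in limma's fit. The list median lay between 15.81 and 17.33 in RIC samples, lowest in RIC sample 5 and next in RIC sample 1, and between 17.09 and 17.40 in control samples. Rab27b, a GTPase of granule release, had 13.40, 14.56, 14.56, 13.87 and 12.59 in RIC and 14.69, 15.79, 15.00, 14.25 and 15.15 in control, a difference of -1.18 (SE 0.42, limma adjusted p = 0.402). Gng11 differed by -0.26, Thbs1 by -0.19 and Gp9 by 0.01. RIC sample 4, highest in histone signal, was within the control range for the platelet list at 17.17. The part of neutrophil, lymphocyte and platelet RNA in the histone values was not tested.

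**Figure D4:**
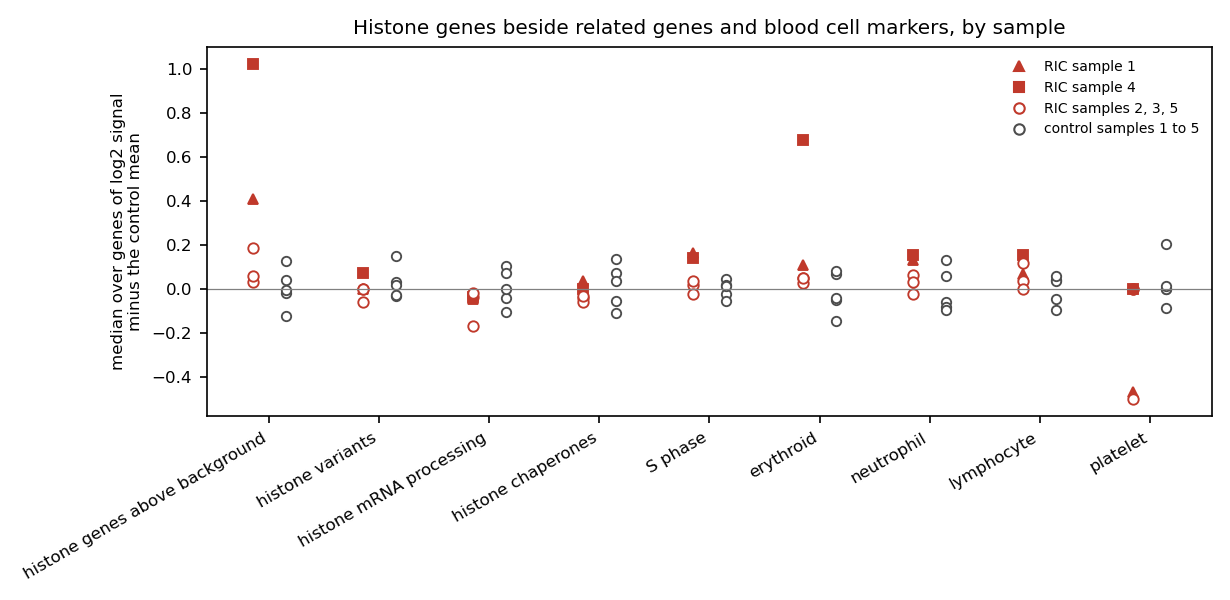
Median over genes of log2 signal minus the control mean (vertical axis) in each sample for the 22 histone genes above background and for 8 lists of related genes and blood cell markers (horizontal axis), with RIC samples in red on the left and control samples in grey on the right. RIC sample 4 stands at 1.02 for histone genes and is the highest sample for the erythroid markers at 0.68. For neutrophil and lymphocyte markers it is highest by little, at 0.15 each, with control sample 4 at 0.13 and RIC sample 5 at 0.12 respectively. The histone variants, processing factors and chaperones lie between -0.17 and 0.15 in every sample, with control sample 2 at 0.15 for the variants.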

How the data were processed

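The authors deposited log2 signals of transcript clusters for each animal. The submitters' processing notes name Affymetrix Expression Console, and its version, the summarisation, the normalization, the probe sequences and the genome build were not given in the sources used here. A ceiling at 19.93, reached by 1211 clusters on all arrays, hides differences of the most abundant RNAs. Some clusters below that ceiling also had the same value on all arrays, among them Hbb at 7.63 and Nap1l1 at 15.69, and could show no difference. Symbols came from the platform annotation, where 23456 clusters had 1 symbol, 495 several and 44891 none, and 7 clusters with a histone symbol among several were left out.

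RIC was compared with control on the deposited values by linear models with moderated variances (limma 3.58.1, R 4.3.3) over all 68842 clusters, with Benjamini-Hochberg adjustment over all of them and a threshold of 0.05. The step was tested on simulated data. Each array is a different rat, and p-values reflect the spread among these 10. Differences, medians and counts were computed in Python 3.11.15. The members and the 8 gene lists were chosen with earlier results of these data known. Per class, the named genes were the 3 with the highest mean, the 3 with the largest and the 1 with the lowest difference and the 1 with the lowest mean, and all H1 genes. The other histone genes were named to account for every member. Per list they were the 2 with the highest mean and the 2 with the lowest p. Replicate numbers were not used to pair the animals in the main fit. Alternatives were other scalings, a filter on dim clusters, other variance models and samples left out.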

Additional observations from a re-analysis of the deposited data

Results flagged for a closer look

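Gaps between one sample and the rest of its group of 5 were read against Dixon's limit of 0.71, and 7 of 72 group values exceeded it, where chance gives about 1 in 20. The gap is given as a share of the group's whole range. Hist1h4m was highest in RIC sample 4, at 15.45 against 14.71 for the next RIC sample, a gap of 0.822. H2bc12 was highest in RIC sample 5, at 4.70 against 4.38, a gap of 0.744. H2ac20 was lowest in RIC sample 3, at 4.97 against 5.24, a gap of 0.794, and among the controls it was lowest in control sample 1, at 4.87 against 5.11, a gap of 0.8. Hist1h2bd was highest in control sample 5, at 4.79 against 4.52, a gap of 0.771. Hist1h3b was lowest in control sample 5, at 5.14 against 5.40, a gap of 0.722, and the median of the H3 class, which is the value of Hist1h3b in control samples, repeated that gap of 0.722.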

How the results depend on the processing

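No cluster passed an adjusted p of 0.05 under any of the 20 other settings of limma's fit. The number with an unadjusted p under 0.05, 7665 as reported, was 2393 among clusters above background, where fewer were tested, and 4750 without control samples 1 and 2. With that filter the median difference was 0.43 for histone clusters, 0.42 for histone genes and 0.67 for H1 genes, since the dim members dropped out. Centring on the receptor clusters gave 0.05 for H1 genes. Histone genes whose groups did not overlap, 3 as reported, numbered 5 after a repeated quantile normalization, 2 with either centring and 3 to 5 when 1 animal was left out, the highest without RIC sample 3. Across scalings 23 to 26 of 31 histone genes were higher in RIC, and all clusters above background were higher in 21.7% to 47.5%, against 38.8% as deposited. Histone medians above background ran from 0.33 to 0.51 there.

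The labels state no pairing of animals by replicate number. Deviations of same-numbered animals correlated at -0.05 to 0.18, which cannot show whether the animals were paired. With the replicate block 7599 clusters had an unadjusted p under 0.05 and 0 an adjusted one, and the medians of histone genes stayed at 0.14. Signal near background and at the ceiling limits what could be seen.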

Other observations

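A further 7 clusters carried a histone symbol among several symbols and were left out of the values above. All 7 had a higher mean in RIC, by 0.21 to 0.59 with a median of 0.28, and 6 were above background. Among all clusters above background 38.8% were higher in RIC, and among all varying clusters 61.2%. RIC sample 4 gave the highest RIC value for 6 of the 7, against 23.4% of all clusters above background. The groups overlapped for all 7. Since such clusters share symbols, and possibly probes, with the histone genes described, they are not separate evidence.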
